A study of Mus musculus with 6 samples.

Results

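The genes described here make, carry, take up and bind retinoids in the mouse hippocampus, and they are Stra6, Rbp4, Rdh10, Aldh1a1, Aldh1a2, Aldh1a3, Crabp1 and Crabp2. They were taken as a named list of retinoic acid synthesis and binding genes, with no threshold on their values. All 8 were measured, among 22180 genes in all, and each was read by exactly 1 probe set that the platform annotation pairs with that symbol alone. The study profiled hippocampal RNA of mice labelled Ahr-KO and of mice labelled wild type, 3 mice and 3 arrays of each. The mice are separate animals per the labels, which name no treatment and give neither age nor strain, nor the part of Ahr that the knockout lacks. Ahr encodes the aryl hydrocarbon receptor, a transcription factor activated by ligands.

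Retinoic acid is made from vitamin A inside cells. Retinol travels in blood and cerebrospinal fluid on a binding protein, enters cells through a membrane receptor, is oxidised to retinaldehyde and then to retinoic acid, and retinoic acid acts on nuclear receptors that switch genes on. In the adult brain the meninges, the membranes that cover the brain and fold in beside the hippocampus, are a known source of the acid, and retinoids are known to act on hippocampal plasticity and on newborn neurons.

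Between the genotypes the retinoid genes differed little. Stra6, the retinol receptor, had higher values on all 3 Ahr-KO arrays than on all 3 wild-type arrays, by 0.37 log2 (1.29-fold). It was 1 of 8 members without overlap, where 6.18% of all genes were higher without overlap and 11.9% did not overlap either way. Rdh10, the retinol dehydrogenase, stood 0.22 log2 higher (1.16-fold) with overlapping values. Neither Stra6 nor Rdh10 passed when p was adjusted over all genes, and no other member had an unadjusted p under 0.05. Aldh1a2 and Crabp2, which meningeal cells are known to express, were both lowest on Ahr-KO array 1 and wild-type array 2. These arrays, 1 of each genotype, were also those with the highest choroid plexus genes. Such lows were found in 2 of 8 members and in 7.14% of all genes. Of 24 meningeal markers 6 were lowest and 3 highest on these arrays, and the part of meningeal tissue was not tested.

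Promoter sequence is shown for 4 members, because the mice are labelled as knockouts for the aryl hydrocarbon receptor and because retinoid genes can themselves respond to retinoic acid. RefSeq's promoter table (GRCm38.p6) held 10 promoters of 5 members, Aldh1a1, Aldh1a2, Crabp1, Rbp4 and Stra6. Aldh1a3, Crabp2 and Rdh10 were not in it. The 250 bases before each transcript start were searched on both strands for GCGTG, the core of the site bound by the receptor with its partner ARNT, whose letters also occur in the element bound by hypoxia-inducible factors, and for AGGTCA, its variant GGTTCA and its variant GGGTCA, hexamers bound by retinoic acid receptors. No matches overlapped. Capitals mark the matches, and the sequences run 5′ to 3′ on the strand of the gene. Those of Aldh1a2 (chr9:71215539-71215788, plus strand), Crabp1 (chr9:54764498-54764747, plus strand) and Rbp4 (chr19:38124812-38125061, minus strand) are all the promoters of members that held GCGTG. That of Stra6 (chr9:58128838-58129087, plus strand), the member with the lowest p, is the first of its 4 in the table.
Aldh1a2: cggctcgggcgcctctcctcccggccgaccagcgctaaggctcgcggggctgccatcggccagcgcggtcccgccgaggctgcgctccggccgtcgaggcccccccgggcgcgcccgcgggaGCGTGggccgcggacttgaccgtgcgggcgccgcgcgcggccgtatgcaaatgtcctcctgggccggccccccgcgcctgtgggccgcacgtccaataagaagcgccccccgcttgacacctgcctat
Crabp1: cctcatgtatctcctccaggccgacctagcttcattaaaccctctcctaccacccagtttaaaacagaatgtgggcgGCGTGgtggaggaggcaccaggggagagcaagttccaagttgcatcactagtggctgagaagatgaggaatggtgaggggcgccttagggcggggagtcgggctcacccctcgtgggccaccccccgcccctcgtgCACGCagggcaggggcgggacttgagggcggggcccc
Rbp4: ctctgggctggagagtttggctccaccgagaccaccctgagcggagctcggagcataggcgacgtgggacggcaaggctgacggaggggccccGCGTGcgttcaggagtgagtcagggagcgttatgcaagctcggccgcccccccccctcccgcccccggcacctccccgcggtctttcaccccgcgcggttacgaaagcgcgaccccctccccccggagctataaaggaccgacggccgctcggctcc
Stra6: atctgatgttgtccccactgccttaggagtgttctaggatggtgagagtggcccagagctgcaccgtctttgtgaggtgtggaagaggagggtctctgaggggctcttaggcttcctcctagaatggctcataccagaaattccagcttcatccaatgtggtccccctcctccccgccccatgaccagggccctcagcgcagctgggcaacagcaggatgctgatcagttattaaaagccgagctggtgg

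GCGTG was in 28.2% of all 32851 promoters of this length, and at least 1 of the hexamers in 30.4%. The Aldh1a2 promoter held GCGTG once, starting at base -128 counted from the transcript start, and its bases were 77.6% G or C. The Crabp1 promoter held it at -173 and, on the other strand, at -37, and the Rbp4 promoter shown held it at -157. None of the 4 Stra6 promoters held GCGTG or a hexamer. The hexamer GGGTCA, which 11.6% of promoters held, was in 1 of the 2 promoters of Aldh1a1, at -49, and in the other promoter of Rbp4, at -53, both times on the opposite strand. No promoter of a member held a pair of these hexamers as a direct repeat 5 bases apart, an arrangement found in 0.0396% of promoters. At so low a share its absence from 10 promoters says little, and other forms of the hexamer were not searched. A match is a run of letters in this window and says nothing about binding in these mice.

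The values are log2 signals after RMA, and the median of the genes tested lay between 6.49 and 6.52 log2 on each array. Ahr itself read 6.62, 6.91 and 6.74 on the Ahr-KO arrays and 7.68, 7.50 and 7.44 on the wild-type arrays. Markers of hippocampal excitatory neurons were bright on every array, for example the dentate regulator Prox1 between 9.48 and 10.02 log2 and the kinase gene Camk2a between 12.18 and 12.28. All 16 measured markers of choroid plexus epithelium, the tissue that makes cerebrospinal fluid, were highest on Ahr-KO array 1 and wild-type array 2, against 7.12% of all genes. Ttr, the carrier of retinol-binding protein and of thyroid hormone that this epithelium secretes, read 13.15 and 12.64 log2 there and 8.64 to 9.06 on the other 4 arrays. These are called the choroid-rich arrays below. Differences of members are also given without both of them where that changes the value to 2 decimals.

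In a limma fit across the 22180 genes, with p adjusted by the Benjamini-Hochberg method, no gene passed adjusted p under 0.05 (0% of genes), and so no member did. Ahr itself, lower in Ahr-KO without overlap at -0.78 ± 0.10 log2 (SE), had adjusted p = 0.320. Failing this threshold therefore does not show that a gene is unchanged. With the intensity trend in limma's variance model 2 genes passed, neither of them a member. At unadjusted p under 0.05 there were 2 members, both higher in Ahr-KO, where 6.18% of all genes tested had such a p, 3.53% higher and 2.65% lower in Ahr-KO. The means were higher in Ahr-KO for 4 members and lower for 4, with a median difference of 0.01 log2, against 0.00 over all genes. Over all genes 11252 means were higher and 10928 lower. Adjusted p ran from 0.770 to 0.995 over the members. With 3 arrays against 3, an exact permutation test cannot give a p below 0.1, so none is given for single genes. The SDs over all 6 arrays were 0.12 to 0.25 log2, with a median of 0.19 over the members and of 0.12 over all genes.

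**Figure D1:**
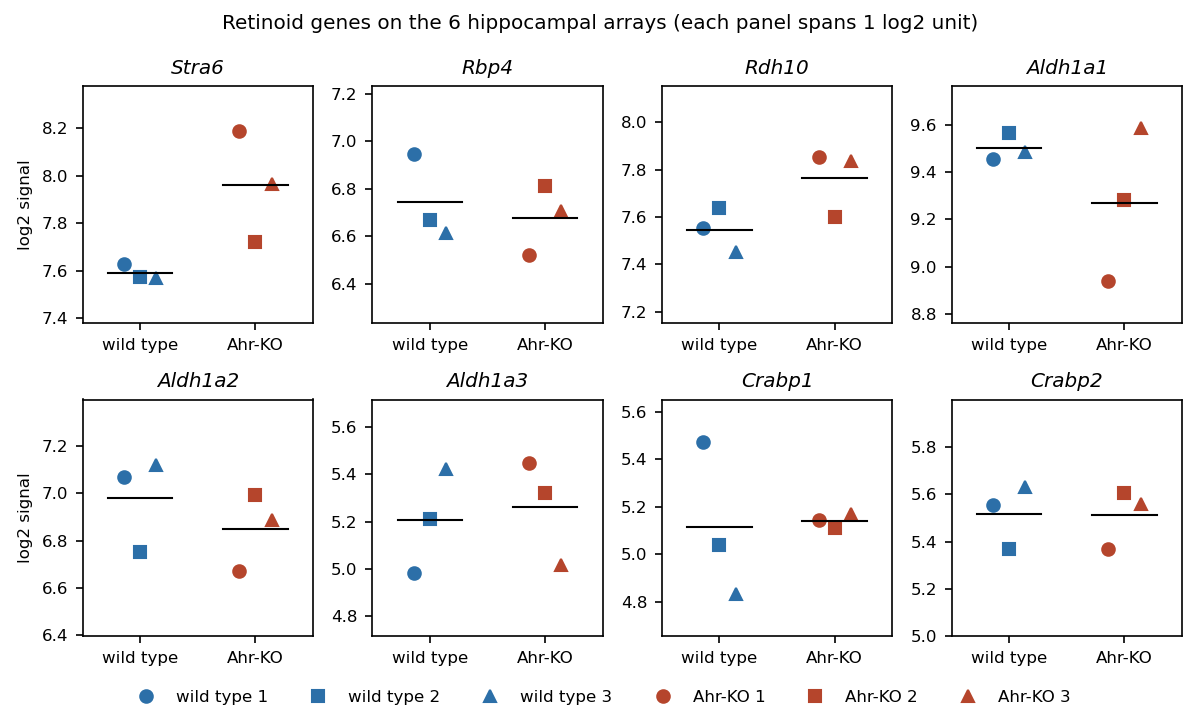
Log2 signal of each retinoid gene on the 6 arrays, 1 point per mouse (circle, square and triangle for arrays 1, 2 and 3), with wild type in blue, Ahr-KO in red and the mean of each genotype as a black line. Each panel spans the same range of log2 signal around its own centre. Stra6 alone shows no overlap between the genotypes, where 11.9% of all genes had none. In Aldh1a2 and Crabp2 the lowest point of each genotype is Ahr-KO 1 or wild type 2.

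Stra6 encodes the membrane receptor that takes retinol from its plasma carrier into cells. It read 8.19, 7.72 and 7.97 log2 on the Ahr-KO arrays and 7.63, 7.57 and 7.57 on the wild-type arrays. The genotypes did not overlap, the lowest Ahr-KO value lying 0.09 log2 above the highest wild-type value, and non-overlap with higher values in Ahr-KO was found in 6.18% of all genes and non-overlap either way in 11.9%. The means were 7.96 ± 0.23 for Ahr-KO and 7.59 ± 0.03 for wild type (SD, n = 3 each), so the wild-type arrays lay far closer together than the Ahr-KO arrays. The difference was 0.37 ± 0.12 log2 (SE; 95% interval 0.10 to 0.64), with limma's unadjusted p = 0.0120 and adjusted p = 0.770. Its p ranked 334 of 22180. The value rested most on Ahr-KO array 1, without which the difference was 0.25 (adjusted p = 0.828), while without Ahr-KO array 2 it was 0.49 (adjusted p = 0.662).

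Stra6 is known from epithelia and vessels of blood barriers, so the markers of those cells are set beside it. On Ahr-KO array 1, where Stra6 was highest, the choroid plexus markers were highest too. On wild-type array 2, the other choroid-rich array, Stra6 read 7.57, to 2 decimals the same as on wild-type array 3. With the mean of the 16 choroid plexus markers as a covariate the difference was 0.34 (unadjusted p = 0.0116), and without both arrays it fell to 0.25 (unadjusted p = 0.0740). The part of choroid plexus in the difference was not tested. Of 16 endothelial and mural markers 13 means were higher and 3 lower in Ahr-KO, with a median difference of 0.06 log2 and none past adjusted p under 0.05 (lowest 0.769). At unadjusted p under 0.05 there were 4 higher and 0 lower, where 3.53% of all genes were higher and 2.65% lower. These were Vwf (0.49 ± 0.12, SE), Tagln (0.38 ± 0.13), Slco1a4 (0.26 ± 0.11) and Abcb1a (0.19 ± 0.08). The endothelial junction gene Cldn5 stood lower at -0.23 ± 0.10, and Cdh5, Rgs5 and Tek differed by 0.01, -0.01 and 0.02 log2. All of these are named after their values were seen. The mean of the list, each gene taken relative to its own mean, lay between 0.02 and 0.10 log2 on the Ahr-KO arrays and between -0.10 and 0.01 on the wild-type arrays. The log2 of the summed signal overlapped, lying between 12.18 and 12.35 and between 12.12 and 12.28. The part of vessels in the Stra6 difference was not tested. In tissue RNA more cells of a type and more RNA per cell cannot be told apart, and signals of an array have no 0, so none of the markers is at 0.

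Rbp4 encodes the binding protein that carries retinol. It read 6.52, 6.81 and 6.71 log2 in Ahr-KO and 6.95, 6.67 and 6.61 in wild type. The genotypes overlapped, the highest value being on wild-type array 1 and the lowest on Ahr-KO array 1. The difference was -0.07 ± 0.11 log2 (SE; 95% interval -0.33 to 0.20), smaller than the spread of 0.29 and 0.33 log2 within the genotypes. Without both choroid-rich arrays it was -0.02.

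Rdh10 encodes the retinol dehydrogenase that carries out the first oxidation, from retinol to retinaldehyde. It read 7.86, 7.60 and 7.84 log2 in Ahr-KO and 7.55, 7.64 and 7.45 in wild type. Ahr-KO arrays 1 and 3 stood above every wild-type array, while Ahr-KO array 2 fell within the wild-type range. The means were 7.76 ± 0.14 and 7.55 ± 0.09 (SD, n = 3 each), a difference of 0.22 ± 0.09 log2 (SE; 95% interval 0.00 to 0.43; limma unadjusted p = 0.0496, adjusted p = 0.806). Its unadjusted p lay just under 0.05 and moved to either side of it, being 0.145 without Ahr-KO array 1, 0.144 without Ahr-KO array 3 and 0.155 without wild-type array 3, and 0.0114 without Ahr-KO array 2. Without the pair of choroid-rich arrays the difference kept its size, 0.22, on fewer arrays (unadjusted p = 0.107).

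The retinaldehyde dehydrogenases, which make retinoic acid itself, gave no difference past either threshold. Aldh1a1, the form known from vessels, glia and dopamine neurons, read 8.94, 9.28 and 9.59 log2 in Ahr-KO and 9.46, 9.57 and 9.48 in wild type. The wild-type arrays lay within 0.11 log2 of each other and the Ahr-KO arrays spread over 0.64, with the lowest and the highest value of all 6 both among them. The means were 9.27 ± 0.32 and 9.50 ± 0.06 (SD, n = 3 each), and the difference was -0.23 ± 0.15 log2 (SE; 95% interval -0.57 to 0.10; limma adjusted p = 0.836). It was -0.07 without Ahr-KO array 1 and -0.39 without Ahr-KO array 3, where the unadjusted p was 0.0122, and -0.04 without the pair of choroid-rich arrays.

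Aldh1a2, the form made by meningeal cells, read 6.67, 6.99 and 6.89 log2 in Ahr-KO and 7.07, 6.75 and 7.12 in wild type. The lowest values of the 6 were those of Ahr-KO array 1 and wild-type array 2, and the highest was on wild-type array 3. The genotypes overlapped, with means of 6.85 ± 0.16 and 6.98 ± 0.20 (SD, n = 3 each) and a difference of -0.13 ± 0.12 log2 (SE; 95% interval -0.41 to 0.15; limma adjusted p = 0.887). Single arrays moved it between -0.04, without Ahr-KO array 1, and -0.24, without wild-type array 2. Without both choroid-rich arrays it was -0.16, and with the choroid plexus markers as a covariate -0.09.

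Aldh1a3, the remaining form, read 5.45, 5.32 and 5.02 log2 in Ahr-KO and 4.98, 5.21 and 5.42 in wild type. These values lay below the median of the genes tested on every array, and the genotypes covered almost the same range. The difference was 0.06 ± 0.14 log2 (SE; 95% interval -0.27 to 0.38), and its sign turned without Ahr-KO array 1 (-0.04).

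The cellular binding proteins hold retinoic acid in the cytoplasm, Crabp1 being known for holding it for breakdown and Crabp2 for handing it to the nuclear receptors. Crabp1 read 5.14, 5.11 and 5.17 log2 in Ahr-KO and 5.47, 5.04 and 4.83 in wild type. The Ahr-KO arrays lay within 0.06 log2 of each other and inside a wild-type range of 0.64, the reverse of the spreads seen for Aldh1a1. The difference was 0.03 ± 0.15 log2 (SE; 95% interval -0.31 to 0.36), and it was 0.21 without wild-type array 1 and -0.11 without wild-type array 3.

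Crabp2 read 5.37, 5.60 and 5.56 log2 in Ahr-KO and 5.55, 5.37 and 5.63 in wild type. As for Aldh1a2, the lowest values were those of Ahr-KO array 1 and wild-type array 2, here equal to 2 decimals. The difference between the genotypes was -0.01 ± 0.10 log2 (SE; 95% interval -0.23 to 0.22; limma adjusted p = 0.995). Crabp1, Crabp2 and Aldh1a3 read below the median of the genes tested on all 6 arrays, and the other 5 members above it. Detection calls were not used here, so how far the dim members stand above background is not known.

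Aldh1a2 and Crabp2 are known from the meninges, so the markers of meningeal fibroblasts were followed array by array. All 24 markers of the list were measured. Aldh1a2 and Crabp2 were 2 of 8 members lowest on Ahr-KO array 1 and wild-type array 2, and 6 of the 24 meningeal markers were lowest there too, against 7.14% of all genes. These arrays were singled out by their choroid plexus genes, and the markers are named after their values were seen. Slc6a13, a GABA and taurine transporter of the leptomeninges, read 7.52 and 7.43 log2 on them and 7.65 to 7.79 on the other 4. Slc13a3, a dicarboxylate transporter, read 7.52 and 7.33 against 7.57 to 7.81. Fmod, the matrix protein fibromodulin, read 6.81 and 6.42, below all the others, which reached 7.38, and Foxc2, a forkhead factor of meningeal mesenchyme, 5.89 and 5.75 against 5.94 to 6.07. The other markers with these lows were the peptidase Dpp4 and the prostaglandin D synthase Ptgds, which oligodendrocytes also make.

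The meningeal list did not move as one. Dcn, Bmp6 and Igfbp2 were highest on the same arrays on which those 6 were lowest, Dcn (decorin) at 10.43 and 10.32 log2 against 9.18 to 10.10. The collagen Col1a1, the matrix protein Fbln1 and Islr had higher means in Ahr-KO at unadjusted p under 0.05 (0.25 ± 0.09, 0.30 ± 0.08 and 0.26 ± 0.10 log2, SE), and the proteoglycan Ogn a lower one (-0.60 ± 0.17). These are 3 higher and 1 lower of 24, where 3.53% of all genes were higher and 2.65% lower at that p. Without overlap between the genotypes 5 markers were higher in Ahr-KO, those 3 with Col1a2 and Col3a1, and 1 lower, Ogn. Over all genes 6.18% were higher without overlap and 11.9% did not overlap either way. The gaps of Col1a2 and Col3a1 were only 0.0066 and 0.0011 log2. Lum, another proteoglycan of fibroblasts, differed by 0.10 ± 0.13. The mean of the list, each gene relative to its own mean, was 0.07, 0.00 and -0.05 log2 on the Ahr-KO arrays and 0.03, -0.13 and 0.07 on the wild-type arrays, so the genotypes overlapped. The log2 of the summed signal lay between 12.87 and 13.01 in Ahr-KO and between 12.90 and 13.18 in wild type. With the list's mean as a covariate Stra6 differed by 0.36, Rdh10 by 0.23 and Aldh1a2 by -0.15 log2. The part of meningeal tissue in the values of Aldh1a2 and Crabp2 was not tested.

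Of the 16 choroid plexus markers 14 means were higher and 2 lower in Ahr-KO, with a median difference of 0.24 log2 against 0.00 over all genes, and the values of the genotypes overlapped for each. None had an unadjusted p under 0.05, and Car12, Cldn2 and Tmem72, those with the lowest p, differed by 0.39 ± 0.32, 0.40 ± 0.38 and 0.33 ± 0.35 log2 (SE). Kl and F5 both differed by 0.26, with standard errors of 0.48 and 0.72. The mean of the list ran from -0.40 to 1.08 log2 over the Ahr-KO arrays and from -0.50 to 0.59 over the wild-type arrays, and the log2 of the summed signal from 10.65 to 13.54 and from 10.49 to 13.05. Ptgds of the meningeal list differed by -0.32 ± 0.15. Of 7 ependymal markers 0 had an unadjusted p under 0.05, of 10 astrocyte markers 1 (Fgfr3, lower in Ahr-KO) and of 10 markers of hippocampal neurons 1 (Prox1, higher).

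**Figure D2:**
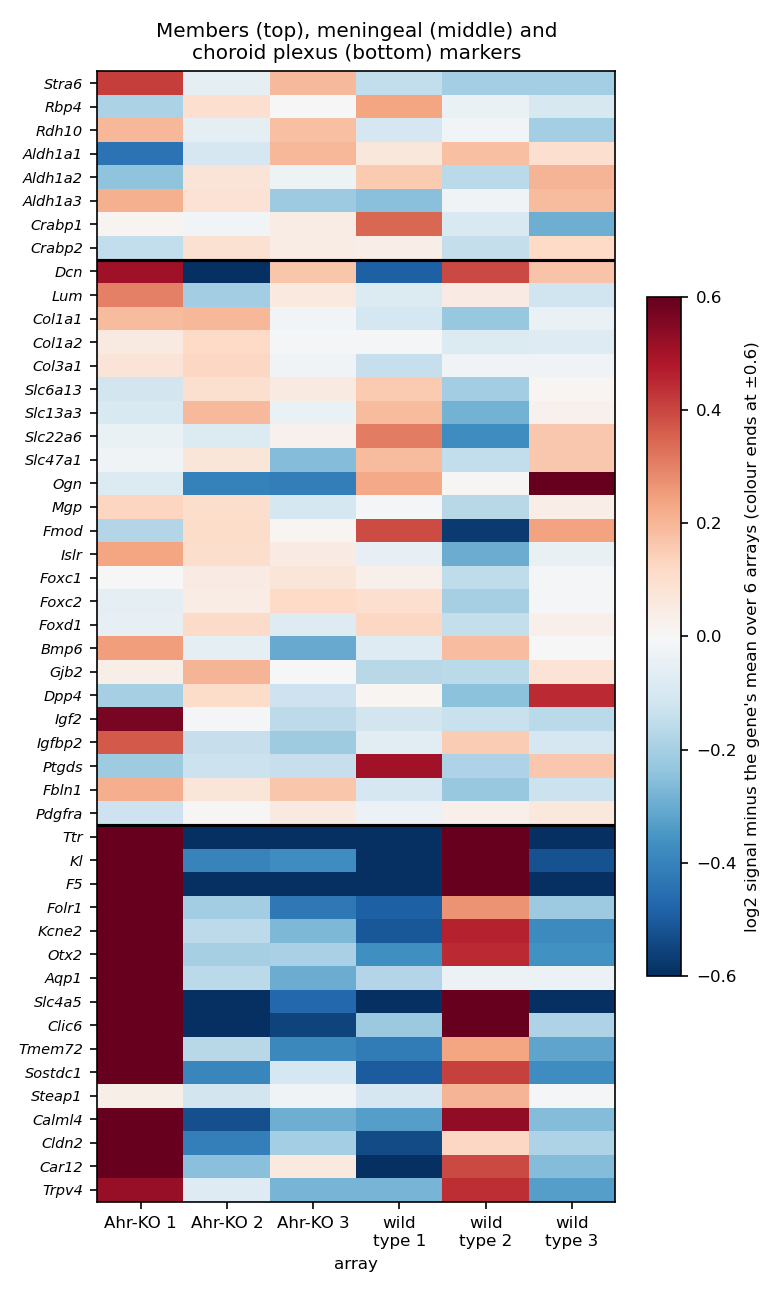
Log2 signal minus the gene's mean over the 6 arrays, for the retinoid genes (top block), the meningeal markers (middle) and the choroid plexus markers (bottom), 1 column per array; red is above and blue below the mean, with colours ending at ±0.6 while some choroid plexus genes go beyond. The choroid plexus block is red on Ahr-KO 1 and wild type 2, where Aldh1a2, Crabp2, Slc6a13, Slc13a3, Fmod and Foxc2 are blue. The meningeal markers Dcn, Bmp6 and Igfbp2 are red there. Of the 24 meningeal markers 6 were lowest and 3 highest on those arrays.

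The rest of the retinoid pathway was taken from 5 lists holding 57 genes, of which 52 were measured. At unadjusted p under 0.05 there was 1 gene with a higher mean in Ahr-KO and none with a lower one, a smaller share than the 6.18% of all genes, and adjusted p was at least 0.797 throughout. The median difference was 0.02 log2, against 0.00 over all genes. The genotypes did not overlap in 5 of the 52, a share no larger than the 11.9% of all genes, Nrgn, Rbp2 and Drd2 being higher and Aldh8a1 and the coactivator gene Ncoa3 lower in Ahr-KO. The gene with the unadjusted p under 0.05 was Nrgn, neurogranin, a calmodulin-binding protein of dendritic spines whose gene responds to retinoic acid. It read 11.92, 12.11 and 11.93 log2 in Ahr-KO and 11.81, 11.80 and 11.72 in wild type. The difference was 0.21 ± 0.08 log2 (SE; limma unadjusted p = 0.0297, adjusted p = 0.797).

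No other response gene of retinoic acid had an unadjusted p under 0.05. Of 14 measured, the means of 12 were higher and of 2 lower in Ahr-KO, with a median difference of 0.03 log2. Over all 22180 genes 11252 means were higher and 10928 lower. The mean of the list, each gene relative to its own mean, overlapped between the genotypes. It lay between -0.06 and 0.06 log2 on the Ahr-KO arrays and between -0.08 and 0.05 on the wild-type arrays. The homeobox genes Meis1 and Meis2 were the 2 with lower means, at -0.24 ± 0.13 and -0.24 ± 0.15 (SE). Drd2, a dopamine receptor gene, differed by 0.14 ± 0.08 without overlap between the genotypes. Rarb, a receptor gene that retinoic acid induces, differed by 0.06 ± 0.12, with values from 6.06 to 6.50 log2. The enzymes that break the acid down, Cyp26a1, Cyp26b1 and Cyp26c1, differed by 0.01, 0.02 and 0.01 log2. Cyp26b1 ran from 6.21 to 6.80 within Ahr-KO alone, from array 1 to array 2.

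Among 12 measured receptors, partners and coregulators 4 means were higher and 8 lower in Ahr-KO, with a median of -0.04 log2 and no unadjusted p under 0.05. The lowest p belonged to Fabp5, which carries retinoic acid to the receptor PPAR delta, at -0.18 ± 0.09 (SE; unadjusted p = 0.0719). The receptor Rara differed by 0.16 ± 0.12 and the heterodimer partner Rxrb by -0.12 ± 0.12. The coactivator Ncoa1 and the corepressor Nrip1 both differed by 0.04 log2. All 17 retinol and retinal oxidoreductases of the list were measured, 11 with higher and 6 with lower means (median 0.04 log2). Aldh8a1, a dehydrogenase that prefers the 9-cis form of retinal, stood lower without overlap at -0.17 ± 0.10. The alcohol dehydrogenases Adh1 and Adh5 differed by 0.16 ± 0.10 and -0.04 ± 0.09, Rdh1 by 0.11 ± 0.08, and Rdh11 by 0.00 ± 0.07 with all 6 arrays between 8.48 and 8.53.

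Of 10 measured genes for retinol carriers, storage and carotenoid cleavage 6 means were higher and 4 lower in Ahr-KO (median 0.06 log2). Rbp2, the intestinal cellular binding protein, differed by 0.16 ± 0.08 (SE) without overlap, the carotene-cleaving enzyme Bco1 by 0.08 ± 0.09 and the visual-cycle isomerase Rpe65 by -0.14 ± 0.15. Ttr differed by 0.09 ± 1.31 (SE), its values on the choroid-rich arrays lying far above the rest in both genotypes. By the rule for likeness, genes with a similar profile over the arrays were to be named for members with an SD of at least 0.3 log2. The highest SD of a member was 0.25, so none was named.

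**Figure D3:**
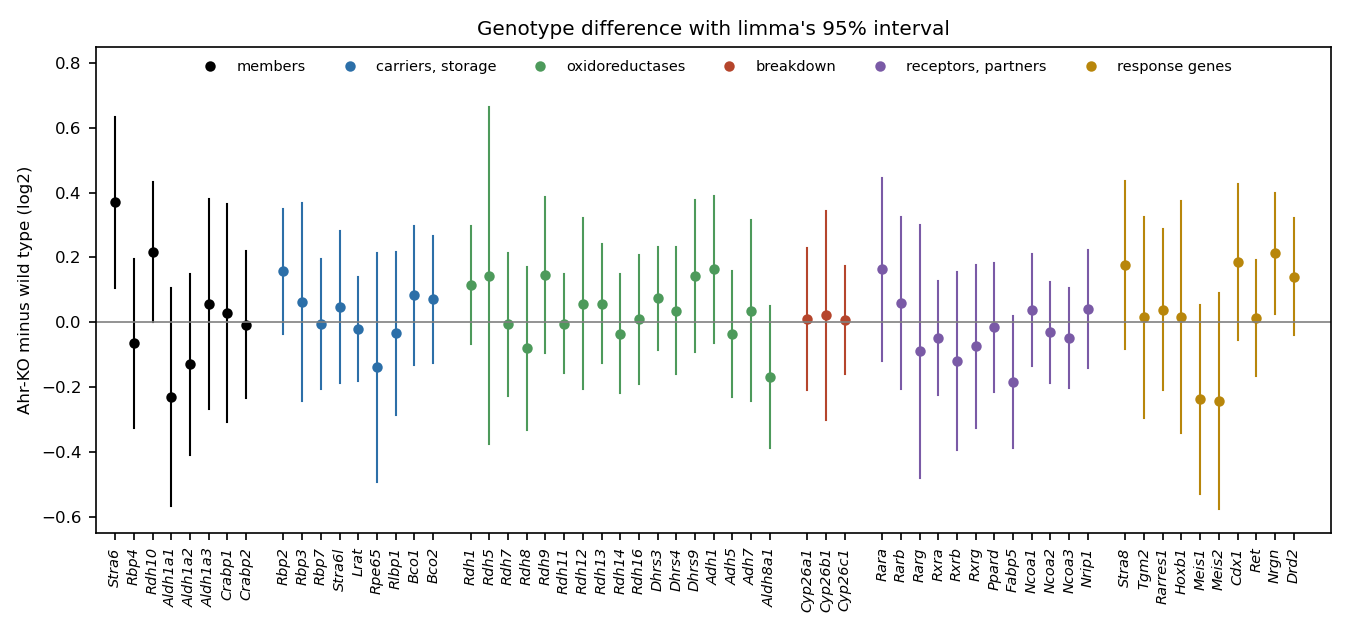
Difference between the genotypes (Ahr-KO minus wild type, log2) for the 8 retinoid genes in black and the other measured genes of the pathway in colour, each gene once, with limma's 95% interval as a vertical line. Ttr, whose interval spans -2.91 to 3.09, is left off. The intervals of Stra6, Rdh10 and Nrgn lie above 0, Rdh10 only just, and those of the other genes shown cross it.

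Over 17 alternative settings the Stra6 difference stayed between 0.25 and 0.49 log2 and that of Rdh10 between 0.17 and 0.30, both always above 0. The adjusted p of Stra6 ran from 0.549 to 0.973 and that of Rdh10 from 0.591 to 0.973. Aldh1a1 stayed between -0.39 and -0.04 and Aldh1a2 between -0.24 and -0.04. The sign of Aldh1a3, Crabp1, Crabp2 and Rbp4 turned under at least 1 setting.

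**Figure D4:**
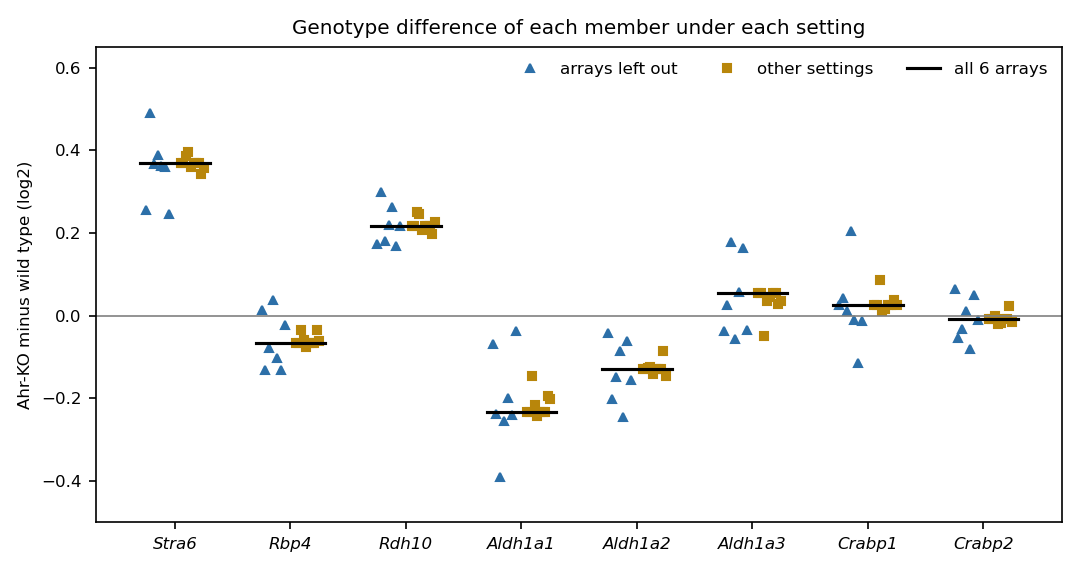
Difference between the genotypes (Ahr-KO minus wild type, log2) for each retinoid gene with all 6 arrays (black line), with arrays left out (blue triangles) and under the other settings (yellow squares). Stra6 and Rdh10 stay above 0 and Aldh1a1 and Aldh1a2 below it under every setting run, and the widest scatter comes from leaving out arrays.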

How the data were processed

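Hippocampal RNA of 6 mice was measured on 6 Affymetrix whole-transcript arrays, labelled with the GeneChip WT PLUS kit per the labels' protocols. The table that the authors deposited holds a log2 signal for every probe set on every array. Per the submitters' processing notes it was made in Affymetrix Expression Console by RMA, which corrects background, gives the arrays a common distribution and summarises probes robustly, and which compresses fold changes. The annotation build is not given in the sources used here, so no gene coordinates are printed except those of RefSeq's promoters.

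Of 41345 rows 23521 had 1 gene symbol, 1814 several and 16010 none. Symbols were updated by Entrez ID through RefSeq (GRCm38.p6; 23328 rows matched). The brightest probe set of each gene was kept, giving 22180 genes with no filter on dim signals. The genotype comparison used limma 3.58.1 (R 4.3.3; lmFit, then eBayes without trend, two-sided, Benjamini-Hochberg adjustment over all genes, threshold 0.05). The test was also run on 20 simulated data sets with 200 changed genes each. Their noise was drawn separately for each gene, without the shared choroid plexus variation of these arrays. They therefore do not show how the test behaves under such variation. The number of arrays limits the precision. Figures used matplotlib 3.10.9.

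The members and lists were chosen with earlier results of these data known. Named besides the members are, in each pathway list and in the choroid plexus and meningeal lists, the genes with the lowest p (up to 3) and the 2 with the highest mean, together with Ttr, Kl, F5, Dcn, Col1a1, Lum and Slc6a13. Others are named as contrasts or as said in the text. Alternatives covered the variance model, array weights, renormalization, dim genes, averaged probe sets, a replicate block, marker covariates and left-out arrays.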

Additional observations from a re-analysis of the deposited data

How the results depend on the processing

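With limma's intensity trend, with or without robust estimation, 2 genes passed adjusted p under 0.05, and 0 under the other 15 alternatives, including with the replicate block and without each array (range 0). The count of members at unadjusted p under 0.05, 2 with all arrays, was 1 with median centring, with the replicate block and with choroid plexus or meningeal markers as a covariate, 0 without Ahr-KO array 1 and wild-type array 2 together, and 1 to 2 without single arrays. The 2 were not always the same genes, being Stra6 and Aldh1a1, the latter lower in Ahr-KO, without Ahr-KO array 3. The labels do not say whether same-numbered mice were paired. The deviations of same-numbered arrays correlated at -0.15, -0.22 and 0.05, which cannot decide this with 3 arrays of each genotype. With the replicate block the Rdh10 difference stayed at 0.22 ± 0.11 log2 (SE), and its unadjusted p was no longer under 0.05. The sign turned for small differences: Aldh1a3 with array weights (-0.050) and without the same 2 arrays (-0.034), and without single arrays within -0.055 to 0.179; Crabp1 without the same 2 arrays (-0.013) and without single arrays within -0.113 to 0.206; Crabp2 with the choroid plexus covariate (0.025) and without single arrays within -0.082 to 0.064; and Rbp4 without single arrays within -0.131 to 0.037. The causes were not tested. Aldh1a3, Crabp1 and Crabp2 have no value in the fit of brighter genes. Leaving out arrays also reduces the residual degrees of freedom.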

Other observations

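A few retinoid genes outside the members were also highest or lowest on the arrays with high choroid plexus genes. Rdh5, a retinol dehydrogenase known from the eye's pigment epithelium, stood at 6.99 log2 (Ahr-KO array 1) and 6.47 (wild-type array 2), against 6.05 to 6.18 on the rest. Rlbp1, a carrier of retinaldehyde that glia also make, was lowest on those 2 arrays, at 7.62 and 7.87 log2 against 7.89 to 8.05. Its value on wild-type array 2 lay only just below the next. Rpe65 and Rbp7, both below the median of the genes tested on every array, were likewise lowest there. This makes 3 of 10 measured genes of the carrier and storage list lowest on those arrays. No other pathway list held such a gene, so it was 3 of 52 measured pathway genes, a smaller share than the 7.14% of all genes. Highest on those arrays were 6 of the 52, against 7.12% of all genes. They were Ttr, Rdh5, Rdh16, Cyp26c1, Ncoa1 and Ncoa2. Ttr is itself one of the choroid plexus markers by which those arrays were singled out, so its place was fixed in advance. The SDs of Rdh16, Cyp26c1, Ncoa1 and Ncoa2 over the 6 arrays were only 0.09, 0.05, 0.06 and 0.03 log2. The genes other than Ttr are named here after their values were seen, and no test was run.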
